A study of Mus musculus with 16 samples.

Results

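Control kidneys at 12 weeks were compared with control kidneys at 6 weeks, to describe what changes in the cells of the normal mouse kidney between these ages when the leptin mutation is absent. The members were the libraries whose titles name the control genotype and 1 of these ages, which gave 8 of the 16 libraries, 4 at each age, and 45852 of the 83788 cells kept after filtering. The study itself compared BTBR ob/ob mice, which lack leptin, become obese and diabetic and are called DN mice, with BTBR mice of wild-type leptin genotype by droplet-based single-cell RNA sequencing. Each library came from both kidneys of 1 mouse, with the papilla removed and glomeruli enriched on a Percoll gradient that discards proximal tubule (PT) fragments.

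The 8 control mice were BTBR +/+ animals, 2 females and 2 males at 6 weeks and 2 females and 2 males at 12 weeks. All mice of the study, controls included, also carried a reporter on the Rosa26 locus that switches from tdTomato to EGFP where Cre is active, and a Cre transgene driven by a podocyte promoter. The reporter line had been crossed into BTBR. The labels call the material glomeruli cells. Most of the named cells were tubule cells by their markers, so the enrichment was partial in these libraries.

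The glomerulus is a tuft of capillaries whose wall has 3 layers: a fenestrated endothelium, the glomerular basement membrane, which is built largely of type IV collagen and laminin, and podocytes, which cover the membrane with interdigitating foot processes. Mesangial cells hold the capillary loops together, and the arterioles that feed the tuft carry smooth muscle and renin-producing cells. Kidney cells, like most cells of the body, also run a circadian clock. In it the activators Clock and Arntl (BMAL1) switch on the Per and Cry genes, whose products feed back on the activators, as well as the Nr1d repressors and the transcription factors Dbp, Tef and Hlf, which pass the rhythm on to other genes.

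Control libraries held 10510855 to 125551519 unique molecular identifiers (UMIs). The libraries used 2 lists of cell barcodes: female replicate 1 of each age shared a list and held 10510855 and 21321172 UMIs, and the other 6 control libraries shared the other list. No pair of libraries shared more than 55 barcodes. Male replicate 2 at 6 weeks stood apart, with a median of 698 UMIs per barcode against 2097 to 10250 in the other control libraries and 41.7% of its cells without a class name. Filtering, doublet removal and clustering left 36477 cells in named classes and 9375 unnamed (20.4%). Classes were named from marker genes, and each name below means cells like that type. The classes were podocytes, glomerular endothelial cells (EC), mesangial cells, smooth muscle and renin cells, arterial EC, an EC group led by Slc14a1, immune cells, dividing cells, PT, descending and ascending loop of Henle (dLOH and aLOH), distal convoluted tubule (DCT), connecting tubule (CNT), principal cells (PC) and intercalated cells of types A and B (IC-A and IC-B). By marker score the Slc14a1 group was closest to arterial EC, with 8 arterial markers found. It was named apart because Slc14a1 led it, so arterial EC below leaves those cells out. Podocytes numbered 225 at 6 weeks and 706 at 12 weeks, mesangial cells 535 and 1052, and smooth muscle and renin cells 547 and 435. The podocyte class included a shallow cluster of 627 cells, counted over all 16 libraries before doublet removal, with a median of 999 UMIs. Of these cells 39.6% came from control male replicate 2 at 12 weeks. In each class with a marker list of its own, every marker of that list was detected, but not always at the level the naming rule asks (10% of cells at a ratio of 2). By that rule the cluster of peritubular and venous EC showed only Plvap, Cd300lg and Igfbp5 of its list. The summed level of the 10 podocyte markers in podocytes was 17059 to 20874 per 1000000 UMIs at 6 weeks and 18085 to 21500 at 12 weeks. Peritubular and venous EC had too few libraries with 10 cells to be tested.

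Few single genes passed the test of age. UMIs were summed per library and class and compared with edgeR's quasi-likelihood test, with sex and barcode list as covariates, and a gene was called at a Benjamini-Hochberg adjusted p under 0.05 within its class. Of 138217 gene tests in 16 classes, 26 were called, which is 0.0188% of tests, 6 higher at 12 weeks (0.00434%) and 20 lower (0.0145%). They were 23 different genes in 3 classes of the glomerulus and its arterioles. Podocytes gave 18 calls (0.246% of 7324 genes), mesangial cells 4 (0.0468% of 8549) and smooth muscle and renin cells 4 (0.0547% of 7314). In the other 13 classes edgeR called none, although between 157 and 563 genes per class had an unadjusted p under 0.05, and DESeq2 called 31 genes in 10 of them. Only the sex and replicate number are labelled, but the libraries of the same sex and number deviated together from their age means. Those deviations still hold the sex difference. With that pair as a block the calls were 77 in all, 40 in podocytes, 14 in mesangial cells, 8 in smooth muscle and renin cells, 10 in arterial EC, 2 each in Slc14a1 EC and dLOH and 1 in DCT. Without male replicate 2 at 6 weeks, the shallow library, they were 76 in all, of which 17 were in CNT, without male replicate 1 at 12 weeks 98, without male replicate 2 at 12 weeks 51 and without male replicate 1 at 6 weeks 43. They were 14 without female replicate 1 at 6 weeks, 17 without female replicate 1 at 12 weeks and 13 in the 6 libraries of the larger barcode list. With sex as the only covariate 1 gene was called, Fbln1 in podocytes. With Scrublet in place of the marker rule for doublets 2 were called, 1 each in dLOH and aLOH, and with all 16 libraries in 1 fit 1 was, in dividing cells, so none of the 26 calls was made under either. Values below are counts per 1000000 UMIs of the class in each library (CPM), in the order female replicate 1, female replicate 2, male replicate 1 and male replicate 2. Fold changes are log2 values of 12 over 6 weeks with their standard errors.

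The gene called in the most classes was Dbp, a D-box-binding transcription factor of the clock output (chr7:45705088-45710203, plus strand, mm10). In podocytes Dbp stood at 31.2, 13.1, 10.3 and 28.1 CPM at 6 weeks and at 248, 48.2, 358 and 60.4 at 12 weeks. The ages did not overlap, and the change was 3.10 ± 0.52 (adjusted p = 0.00925, edgeR). In mesangial cells it stood at 284, 21.5, 42.5 and 144 at 6 weeks and at 630, 281, 523 and 257 at 12 weeks. Here the highest 6-week library lay above the lowest 12-week library, and the change was 2.19 ± 0.37 (adjusted p = 0.048, edgeR). In smooth muscle and renin cells Dbp stood at 49.7, 4.06, 5.69 and 18.6 and then 163, 15, 112 and 36.4, with a change of 2.17 ± 0.39 (adjusted p = 0.0203, edgeR). Each 12-week library was higher than the 6-week library of the same sex and number in these 3 classes.

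**Figure D1:**
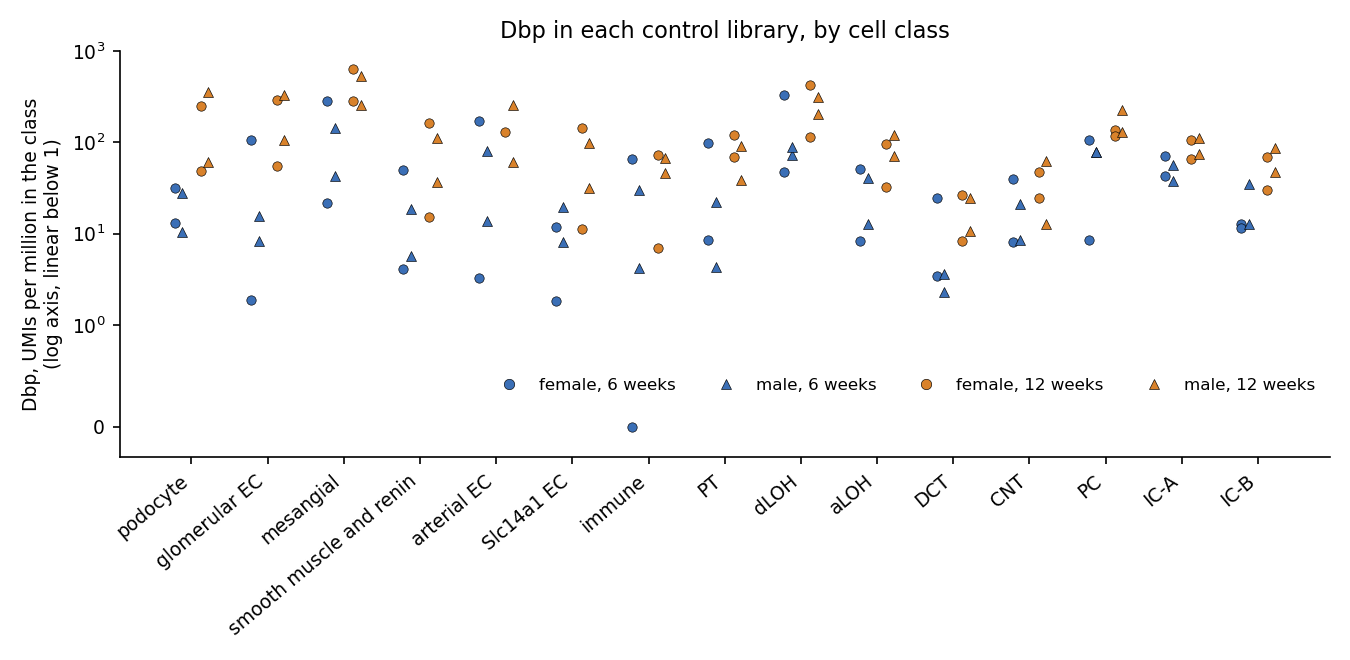
Dbp in CPM on a log axis (linear below 1) for each of 15 cell classes, with 1 point per control library, circles for females and triangles for males, blue for 6 weeks and orange for 12 weeks. The fitted change was above 0 in every class plotted, and among the classes with 8 libraries the ages did not overlap in podocytes and PC.

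Dbp was also above its 6-week level in the classes without a call. The fitted change was above 0 in 15 of 15 classes tested, from 0.81 in IC-A to 3.24 in glomerular EC, with a median of 1.79, and the unadjusted p was under 0.05 in 15. Glomerular EC stood at 105, 1.89, 8.36 and 15.7 at 6 weeks and at 292, 54.7, 330 and 105 at 12 weeks, a change of 3.24 ± 0.52 that did not pass over all genes of that class (adjusted p = 0.224, edgeR). PT stood at 98.8, 8.45, 4.27 and 22.3 and then at 120, 69.5, 91.8 and 38.3. The spread within an age was wide, and female replicate 1 at 6 weeks was the highest 6-week library in every class except Slc14a1 EC and IC-B. In PC, at 106, 8.47, 78.4 and 77.7 and then 137, 118, 227 and 129, the ages did not overlap. This happened for Dbp in 2 classes, and over all genes 0.733% of tests had all 4 libraries at 12 weeks above all 4 at 6 weeks. The classes of 1 library come from 1 mouse, so they are not independent measurements. The change stayed above 0 in every class tested when any 1 library was left out, with medians from 1.44 to 2.22. The number of classes called then ranged from 0, without male replicate 1 at 6 weeks, to 5, without male replicate 2 at 12 weeks, and with sex as the only covariate it was 0. With the replicate block it was 4.

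Several other targets of the activators lay the same way as Dbp. Per3, a period gene, had a fitted change above 0 in 12 of 12 classes (median 1.29) and did not overlap between ages in 6. In dLOH it stood at 34, 10.5, 25 and 30.2 at 6 weeks and at 70.6, 64.6, 68.6 and 69 at 12 weeks, a change of 1.46 ± 0.25 (adjusted p = 0.0637, edgeR). The 4 older libraries were close together there and all above the younger ones. In podocytes, where Per3 was called (chr4:151003652-151044665, minus strand, mm10), it stood at 31.2, 5.81, 9.05 and 10.2 and then 29.3, 28.2, 70.8 and 30.8, a change of 2.19 ± 0.40 (adjusted p = 0.0198, edgeR), and female replicate 1 at 6 weeks lay within the 12-week range. Tef, a relative of Dbp, was above 0 in 15 of 15 classes (median 0.95). So were the repressors Nr1d1 (15 of 15, median 0.70) and Nr1d2 (15 of 15, median 0.57). Per2 (7 of 7, median 0.92), Bhlhe41, a repressor of the loop (7 of 7, median 1.13), Ciart, a repressor of the activators (3 of 3, median 1.34), and Cry2 (10 of 11, median 0.64) lay the same way. Others did not. Per1 was above 0 in 6 of 12 classes and Cry1 in 1 of 4 (median -0.18), and Hlf, the other relative of Dbp, was above 0 in 6 of 9 (median 0.50).

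Arntl and its partners lay the other way. Arntl was below 0 in 11 of 12 classes, with a median of -1.10. In glomerular EC it stood at 23.9, 56.6, 59.6 and 23.5 at 6 weeks and at 15.5, 19.9, 7.74 and 20.6 at 12 weeks, which did not overlap, as held for 0.598% of all tests in this direction. Npas2, a partner of Arntl that resembles Clock, was below 0 in 3 of 3 classes (median -1.29). Nfil3, which represses at the D-boxes that Dbp activates, was also below 0 in 3 of 3 (median -1.41). Clock itself was below 0 in 13 of 16 classes by little (median -0.08). The adjusted p missed 0.05 in every class for Arntl, Npas2, Nfil3 and Clock.

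**Figure D2:**
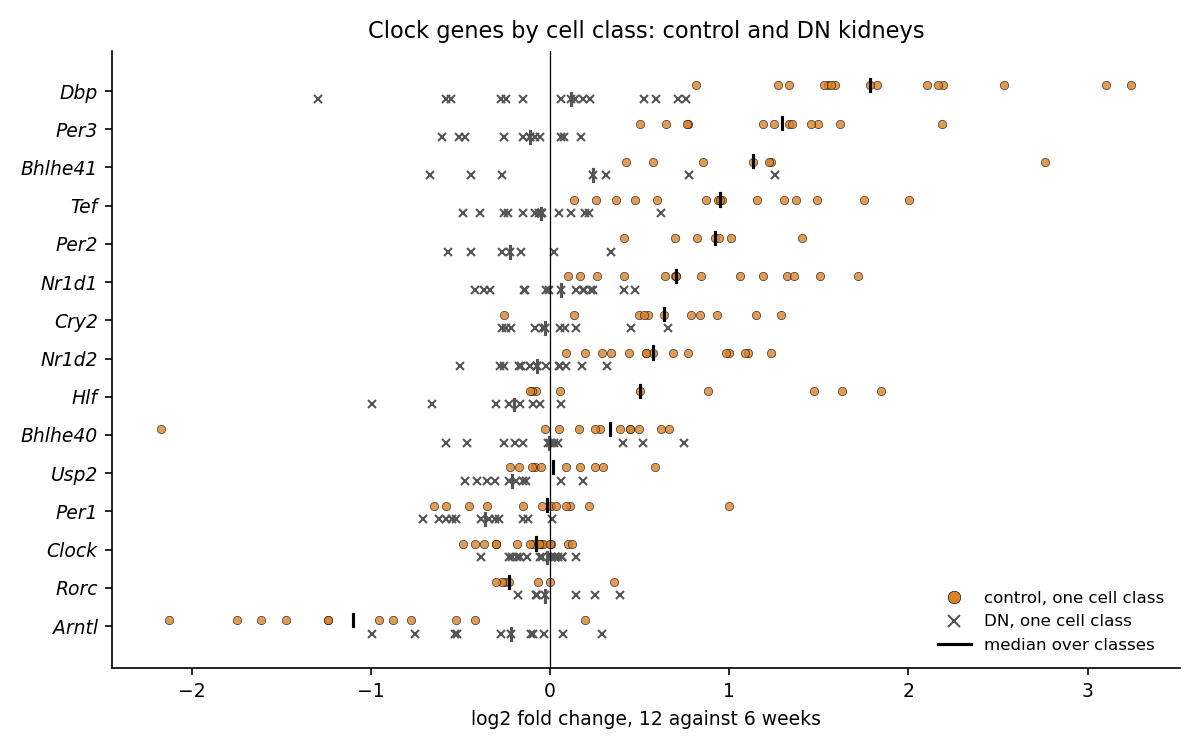
Log2 fold change of 12 over 6 weeks for the clock genes tested in at least 7 classes, with 1 circle per cell class of control kidneys, 1 cross per class of DN kidneys and a bar at the median over classes. Control circles lie above 0 for Dbp, Per3, Bhlhe41, Tef, Per2, Nr1d1 and Nr1d2 and mostly below 0 for Arntl, while the DN crosses lie on both sides of 0 for Dbp.

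Over the whole list of 19 clock genes, 132 of 188 tests in 16 classes had a fitted change above 0, 85 of them at an unadjusted p under 0.05, against 17 below 0, and 4 were called, all higher, where 0.00434% of all tests were called higher and 4163 of 138217 had an unadjusted p under 0.05. The calls were 0 without male replicate 1 at 6 weeks and with sex as the only covariate, 1 without either female replicate 2 library, 10 without male replicate 2 at 12 weeks, 11 with the replicate block and 12 without male replicate 2 at 6 weeks. Without male replicate 1 at 12 weeks 56 tests above 0 and 18 below had an unadjusted p under 0.05. The median over members was above 0 in 16 of 16 classes, from 0.10 in smooth muscle and renin cells to 1.29 in glomerular EC, while the median over all genes tested in a class lay between -0.01 and 0.02. It was above 0 in 14 of 16 classes without male replicate 1 at 12 weeks and in 13 of 16 without male replicate 2 at 12 weeks. In DN mice the same contrast, which shares no library with the control one, gave a Dbp change above 0 in 9 of 15 classes with a median of 0.11, and the list median was above 0 in 6 of 16. The difference between genotypes passed for no clock gene (lowest adjusted p = 0.633, edgeR, for Per3 in podocytes) and had an unadjusted p under 0.05 for Dbp in 8 of 15 classes. Summed over all cells of a library, Dbp stood at 83.3, 11.5, 21.1 and 37.1 at 6 weeks and at 141, 56, 152 and 58.5 at 12 weeks in control mice. In DN mice it stood at 28.8, 10.6, 130 and 14 and then at 75.9, 35.7, 86.2 and 15.2. The labels give no hour of harvest, so age and hour of harvest cannot be told apart for clock genes.

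The promoters of several of these genes hold the clock's own motifs. The product of Dbp binds the D-box, and Arntl with Clock binds the E-box. The windows printed were chosen with the fitted changes of these genes known. A part of the motifs in those changes was not tested. Promoters were RefSeq sequences (GRCm38.p6) of 300 bases, 250 before to 50 after the start, and 16 of the 19 list members were in the table. The D-box was searched as TTATGTAA and its reverse TTACATAA and the E-box as CACGTG, which reads the same on both strands, and capitals mark the motif. The letters do not overlap between the motifs.
Per3, chr4:151044805-151044834, minus strand, D-box 158 bases before the start: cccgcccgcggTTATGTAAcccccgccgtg
Per3, chr4:151044852-151044881, minus strand, D-box 205 bases before the start: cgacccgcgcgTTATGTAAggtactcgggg
Tef, chr15:81802534-81802563, plus strand, E-box 127 bases before the start: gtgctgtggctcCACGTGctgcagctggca
Bhlhe41, chr6:145865556-145865585, minus strand, E-box 153 bases before the start: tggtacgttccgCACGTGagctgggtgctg
Ciart, chr3:95882255-95882284, minus strand, E-box 44 bases before the start: cgtgcagaaccgCACGTGtctgggaggggg
Per1, chr11:69098771-69098800, plus strand, E-box 166 bases before the start: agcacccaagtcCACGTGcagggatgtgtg
The E-box was found in 5 of the 16 clock genes, and in 8.09% of the 27025 genes of the table. The D-box was found in 1 of the 16, Per3, at both places printed, and in 1.11% of all genes. The fifth gene with an E-box was Cry1, 60 bases before its start, and its fitted change was below 0 in 3 of 4 classes, so among the genes with an E-box Per1 and Cry1 had changes on both sides of 0. Further E-boxes, 58 and 116 bases before the start of Ciart and 138 bases before another start of Tef, are not printed. No motif was found for Dbp, Nr1d1, Nr1d2, Per2 or Cry2, whose fitted changes lay above 0 in all or most classes. Some list members were not in the table.

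In podocytes 15 of the 18 called genes (0.246% of genes tested) were lower at 12 weeks. Of 11 basement membrane genes tested there 2 fell, Col4a1 and Col4a2, and of 11 interstitial matrix genes 4 fell, Mgp, Col3a1, Bgn and Col1a2. Fbln1 and Col1a1, outside those lists, also encode matrix proteins. Among the type IV collagens, Col4a1 stood at 140, 43.6, 111 and 113 CPM at 6 weeks and at 52.2, 33.2, 20.9 and 21.3 at 12 weeks. It fell by 1.86 ± 0.29 on the log2 scale (adjusted p = 0.00484, edgeR), and female replicate 2 at 6 weeks lay within the 12-week range. Col4a2 stood at 62.3, 61, 80.1 and 79.3 and then at 22.8, 39.9, 26.9 and 34.7, without overlap, and fell by 1.20 ± 0.23 (adjusted p = 0.0266, edgeR). These chains form the collagen IV heterotrimer of the early glomerular basement membrane. Their genes lie head to head at chr8:11198423-11312826 (minus strand) and chr8:11312805-11449287 (plus strand), so only their starts overlap. Reads from that overlap could not be assigned without strand, but the 3' kits used here capture the other end of a transcript. The other podocyte collagen IV chains, Col4a3, Col4a4 and Col4a5, were not called.

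The other matrix genes that fell were ones of fibroblasts and vessel walls, and their UMIs came from few cells. Mgp, matrix Gla protein, an inhibitor of calcification, stood at 2695, 619, 255 and 1093 at 6 weeks and at 19.6, 1.66, 15.8 and 129 at 12 weeks, which did not overlap, and fell by 4.34 ± 0.63 (adjusted p = 0.00307, edgeR). Of its 1651 UMIs at 6 weeks, the 5 cells richest in it held 93.8%. Fbln1, the matrix glycoprotein fibulin-1, fell by 4.28 ± 0.53 (adjusted p = 0.00119, edgeR), from 187, 69.7, 18.1 and 16.6 to 0, 0, 2.56 and 1.12, and 5 cells held 97.7% of its 6-week UMIs. Col1a1, a chain of type I collagen, went from 296, 171, 22 and 53.7 to 0, 0, 0.853 and 8.95 and fell by 4.23 ± 0.57 (adjusted p = 0.00161, edgeR), with 94.9% in 5 cells. Col3a1, a fibrillar collagen (fell by 3.17), and Bgn, biglycan (fell by 2.54), were alike, with 97.7% and 70.9% of UMIs in 5 cells. Fbln1 and Col1a1 were at 0 in both female libraries at 12 weeks, so the sizes of their falls depend on the prior count. Both genes passed the filter on low counts only through their 6-week libraries. Col1a2 was more evenly spread, with 35.5% in 5 cells, and stood at 327, 256, 156 and 271 and then at 84.8, 121, 113 and 140, a fall of 0.99 ± 0.20 (adjusted p = 0.0476, edgeR).

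**Figure D3:**
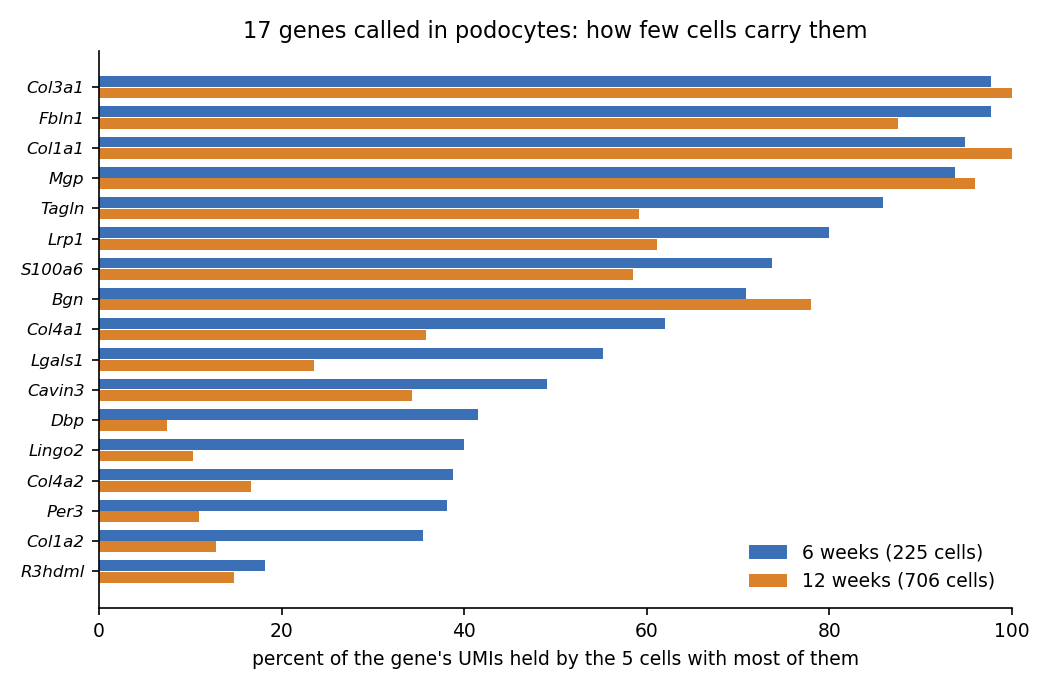
For 17 of the 18 genes called in podocytes, the bars give the percent of its UMIs, summed over the 4 libraries of an age, that the 5 cells richest in it held, blue for 6 weeks (225 cells) and orange for 12 weeks (706 cells). The bars of Col3a1, Fbln1, Col1a1 and Mgp reach 87.5% or more at both ages, and R3hdml has the shortest 6-week bar at 18.2%.

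Markers of fibroblasts and mural cells stood beside these genes, and their part in the falls was not tested. In podocytes, 6 of 225 cells at 6 weeks and 2 of 706 at 12 weeks had UMIs of at least 3 of 7 fibroblast markers. Of the 6, 3 were among the 19 podocytes of female replicate 1, and each other 6-week library gave 1. Such a count depends on depth, and the median UMIs per podocyte were 3445, 8585, 10370 and 8764 at 6 weeks and 4821, 10438, 7556.5 and 4826.5 at 12 weeks. None of the 7 markers, which include Col1a1, was at 0 in every library, but Col1a1 was at 0 in both female libraries at 12 weeks. The summed level of the 7 ranged from 883 to 2197 at 6 weeks and from 904 to 1046 at 12 weeks. At 12 weeks Col1a1 made up no more than 8.95 of it, so the sum followed other members and is no measure of fibroblast content. The 7 smooth muscle and renin markers, which include Tagln, summed to 31.2 to 1163 and then 65.4 to 211. Without the 17 and 33 podocytes that carried fibroblast or endothelial markers, an alternative chosen after seeing the data, 3 genes were called: Dbp at 3.13 (adjusted p = 0.0403, edgeR), Cavin3 at -2.38 and Tagln at -2.86. Col4a1 then stood at -1.64 (adjusted p = 0.166), Col4a2 at -1.17 (adjusted p = 0.105) and Col1a2 at -0.35 (edgeR). Mgp, Fbln1, Col1a1, Col3a1 and Bgn were not among the genes called then. Col1a1 is itself a marker used for that removal, so its loss was partly built in. Not called here can also mean that a gene no longer passed the filter on low counts. Col4a1 passed whichever library was left out. Col1a1 and Fbln1 did too, but both entered the test only through 6-week libraries, where few cells held most of their UMIs. For them this adds no support. The podocyte calls numbered 7 without female replicate 1 at 6 weeks, 10 without female replicate 1 at 12 weeks, 31 without male replicate 1 at 12 weeks and 28 without male replicate 2 at 12 weeks. Outside the naming rule, and so chosen after their values were seen, were S100a6, R3hdml, Cavin3, Lrp1, Tagln and Lgals1, all lower (-1.51 to -2.76).

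Beside the clock genes Dbp and Per3, Lingo2 was the only gene that rose in podocytes. Lingo2 (chr4:35706647-36951747, minus strand, mm10) encodes a membrane protein with leucine-rich repeats. It stood at 15.6, 17.4, 15.5 and 19.2 CPM at 6 weeks (16.9 ± 1.75, SD, n = 4) and at 39.1, 53.1, 38.8 and 43.6 at 12 weeks (43.7 ± 6.68, SD, n = 4). The ages did not overlap and each library lay close to the others of its age, which gave a change of 1.34 ± 0.27 (adjusted p = 0.0373, edgeR). Its total was 40 UMIs at 6 weeks and 213 at 12 weeks. It was called under 5 of 20 alternatives, with its sign kept in 20, and in DN mice the change was 0.36 ± 0.37. The 10 podocyte markers showed no such shift, with 7 of 10 above 0 and a median of 0.05, and none had an unadjusted p under 0.05.

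In mesangial cells 3 genes fell, and Dbp was the 1 that rose. Foxs1, a forkhead transcription factor of pericytes and vascular mural cells (chr2:152931898-152933208, minus strand, mm10), stood at 13.2, 88.3, 52.3 and 42.3 CPM at 6 weeks and at 7.29, 28.2, 3.94 and 10.3 at 12 weeks, and fell by 2.24 ± 0.32 (adjusted p = 0.0184, edgeR). Mpzl1, a membrane protein with an immunoglobulin domain (chr1:165592240-165634538, minus strand), stood at 42.9, 182, 74.1 and 44.8 and then at 18.2, 47.4, 25.4 and 25.6, and fell by 1.58 ± 0.23 (adjusted p = 0.0184, edgeR). In both the female replicate 2 libraries were the highest of their age, and the one at 12 weeks was the library that overlapped with the 6-week range. Ccdc184 (chr15:98167158-98170134, plus strand) stood at 29.7, 46.3, 29.4 and 27.4 and then at 10.9, 17.2, 10.1 and 9.4, with no overlap, and fell by 1.52 ± 0.25 (adjusted p = 0.048, edgeR). Without either female replicate 2 library no mesangial gene was called (edgeR), without male replicate 1 at 6 weeks 2 were, without male replicate 2 at 6 weeks 9, and without male replicate 1 at 12 weeks 22. Without cells carrying markers of another lineage, Mpzl1, Foxs1 and Dbp were called again. Of the 7 fibroblast markers, 4 (Lum, Dpt, Mfap5 and Clec3b) were at 0 in mesangial cells, and the sum of the list ranged from 289 to 379.6 at 6 weeks and from 357 to 493 at 12 weeks. Over the mesangial marker list the summed levels overlapped between the ages, at 16042 to 18353 and 16581 to 17767. In DN mice the changes were -0.11 for Foxs1, -0.72 for Mpzl1 and -0.39 for Ccdc184, and the difference between genotypes passed for none (adjusted p = 1 for each, edgeR).

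In smooth muscle and renin cells Eln and Mgp fell, and Dbp and Kdr rose. Eln, which encodes elastin, the fibre protein of elastic arteries (chr5:134702593-134747323, minus strand, mm10), stood at 149, 236, 164 and 205 CPM at 6 weeks and at 54.2, 108, 70.9 and 111 at 12 weeks, without overlap, and fell by 1.10 ± 0.19 (adjusted p = 0.0203, edgeR). Mgp (chr6:136872435-136875823, minus strand) stood at 1410.4, 2691, 1977 and 2110.1 and then at 735, 1233, 1101 and 1170.1, again without overlap, and fell by 0.96 ± 0.15 (adjusted p = 0.0158, edgeR). Within each sex and number the 12-week library was lower for both genes. Kdr, the VEGF receptor of endothelium, was the fourth call, at 2.75 ± 0.49 (adjusted p = 0.0203, edgeR), outside the naming rule and named after its values were seen. Its values at 12 weeks were 92.9, 1.5, 59.1 and 44, and the summed endothelial markers in this class ranged from 3.72 to 199 at 6 weeks and from 1.5 to 147 at 12 weeks. Cells with endothelial markers numbered 4 of 547 at 6 weeks and 8 of 435 at 12 weeks, and without them 3 genes of the class were called (edgeR). The part of such cells in the rise of Kdr was not tested. Of the 7 fibroblast markers, 5 (Pdgfra, Lum, Dpt, Mfap5 and Clec3b) were at 0 in this class. The sum of the list, 485 to 705 and then 389.8 to 522, therefore came from Gsn and Col1a1. Eln and Mgp lost their calls when any 1 of the 4 female libraries was left out, with 0 genes of the class called without female replicate 1 of either age and 1 without female replicate 2 of either age. Without male replicate 2 at 6 weeks 2 were called, and without male replicate 1 at 12 weeks 20.

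**Figure D4:**
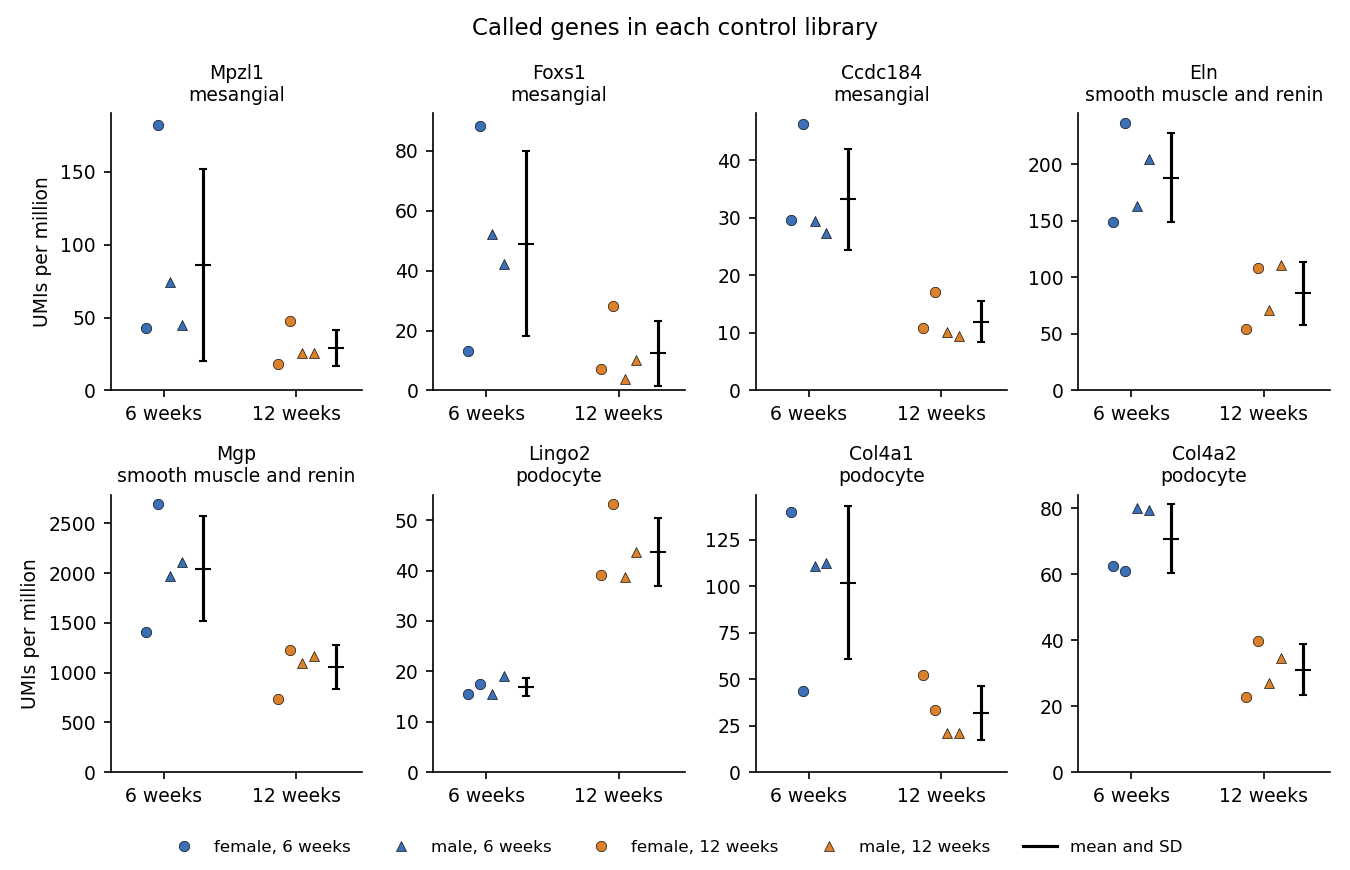
CPM of 8 called genes in each control library, in mesangial cells (Mpzl1, Foxs1, Ccdc184), smooth muscle and renin cells (Eln, Mgp) and podocytes (Lingo2, Col4a1, Col4a2), circles for females and triangles for males, with the mean and SD of 4 libraries beside each age. The ages do not overlap for Ccdc184, Eln, Mgp, Lingo2 and Col4a2, and Lingo2 is the gene of these that was higher at 12 weeks.

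Mgp in smooth muscle and renin cells was the 1 gene of 146041 tests (0.000685%) whose change with age differed between control and DN mice. In DN mice it stood at 1047, 4075, 1852 and 1983 at 6 weeks and at 2299.8, 4198, 5200.4 and 2344 at 12 weeks, a change of 0.77 ± 0.20, so that control minus DN was -1.72 ± 0.28 (adjusted p = 0.0114, edgeR). With the replicate block 6 genes passed this test of difference, and with DESeq2 5. Eln lay the same way in DN mice (-0.79 ± 0.32), and for the other genes named above no difference between the genotypes passed.

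Matrix genes as groups lay lower at 12 weeks in more classes than not. Of 206 tests of 20 basement membrane genes in 16 classes, 140 had a fitted change below 0, with 30 of them at an unadjusted p under 0.05 against 1 above 0, and 2 were called, the podocyte collagens. Over all genes 4163 of 138217 tests had an unadjusted p under 0.05 and 0.0145% were called lower. The list median was below 0 in 15 of 16 classes. It was -0.45 in PT, where 14 of 15 members were below 0, -0.34 in mesangial cells and -0.29 in smooth muscle and renin cells. In PT, 96.5% of a cluster of 401 cells, with a median of 19135 UMIs before doublet removal, came from control male replicate 2 at 6 weeks. All PT cells kept in that library had a median of 657.5 UMIs. PT carried Col4a3 at 102, 305, 114 and 247 at 6 weeks and at 49.6, 158, 92.3 and 165 at 12 weeks (-0.70 ± 0.22). In mesangial cells Col4a1 stood at 1000.2, 3578, 2060.1 and 3024 and then at 1005, 1779, 1047 and 1515 (-0.79 ± 0.21). These values overlapped between the ages, and neither passed (adjusted p = 0.938 and 0.497, edgeR). Sparc, a matricellular protein that binds collagen, was below 0 in 13 of 15 classes (median -0.43) and Col4a2 in 14 of 16. The tests at an unadjusted p under 0.05 were 18 below and 2 above 0 without female replicate 2 at 12 weeks, 18 and 1 without female replicate 2 at 6 weeks, and 26 and 7 without male replicate 1 at 12 weeks. Without male replicate 1 at 12 weeks the list median was below 0 in 9 of 16 classes, and without male replicate 2 at 6 weeks in 10. In DN mice it was below 0 in 15 of 16 as well.

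Of 149 tests of 26 interstitial matrix genes, 102 lay below 0 and 6 were called, all lower, against 0.0145% of all tests. They were Mgp, Col3a1, Bgn and Col1a2 in podocytes and Eln and Mgp in smooth muscle and renin cells. The calls were 0 without female replicate 1 at 6 weeks and in the 6 libraries of the larger barcode list, 2 without female replicate 1 at 12 weeks or female replicate 2 at 6 weeks, 4 without female replicate 2 at 12 weeks, 7 to 11 without any 1 male library, 0 with sex as the only covariate and 11 with the replicate block. The list median was below 0 in 11 of 16 classes. The smooth muscle and renin class had 20 of 21 members below 0, 10 of them at an unadjusted p under 0.05, with a median of -0.40. Col3a1 stood there at 129, 154, 102 and 160 at 6 weeks and at 85.1, 61.6, 68.9 and 75.4 at 12 weeks, without overlap (-1.004 ± 0.20, adjusted p = 0.0674, edgeR). Ctgf (-0.55), Thbs1 (-0.90) and Fn1 (-0.84), which encode proteins of the matrix, lay the same way but their ages overlapped. The summed level of the list was 4628 to 6377 at 6 weeks and 2979.8 to 4167 at 12 weeks, and all 7 smooth muscle and renin markers lay below 0 too, by a median of -0.13.

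Interferon-stimulated and MHC class I genes, which present viral peptides and restrain viral growth, lay higher at 12 weeks in the group values, and 1 library carried much of this. Of 365 tests of 32 genes, 311 had a fitted change above 0, 85 at an unadjusted p under 0.05 against 3 below 0, and none was called (edgeR). Over all genes 4163 of 138217 tests had an unadjusted p under 0.05 and 0.00434% were called higher. The list median was above 0 in 16 of 16 classes, highest in PC (0.77), DCT (0.62) and CNT (0.60). In PC, Isg15, a ubiquitin-like protein induced by interferon, stood at 8.25, 3.78, 3.21 and 6.6 at 6 weeks and at 7.69, 18.4, 59.5 and 5.66 at 12 weeks. Ifit1, which binds viral RNA, stood at 2.06, 4.7, 3.21 and 4.08 and then at 9.61, 11.4, 36.4 and 7.64. Male replicate 1 at 12 weeks was the highest for both. Without that library 228 of 364 tests lay above 0, 34 of them at an unadjusted p under 0.05 against 11 below, 2 tests were called, the median was above 0 in 13 of 16 classes and the PC median was 0.29. Calls were 6 without male replicate 2 at 12 weeks, 2 without male replicate 1 at 6 weeks and 1 without male replicate 2 at 6 weeks. Slc14a1 EC kept their median without it (0.44 with and 0.46 without). In those cells Ifi27l2a, an interferon-induced gene, stood at 546, 345, 531 and 319 and then at 1152, 703, 823 and 1589, without overlap (1.31 ± 0.23, adjusted p = 0.125, edgeR). H2-K1, an MHC class I heavy chain with near-identical relatives that could share reads, lay above 0 in 16 of 16 classes (median 0.31). In DN mice the list median was above 0 in 6 of 16 classes.

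**Figure D5:**
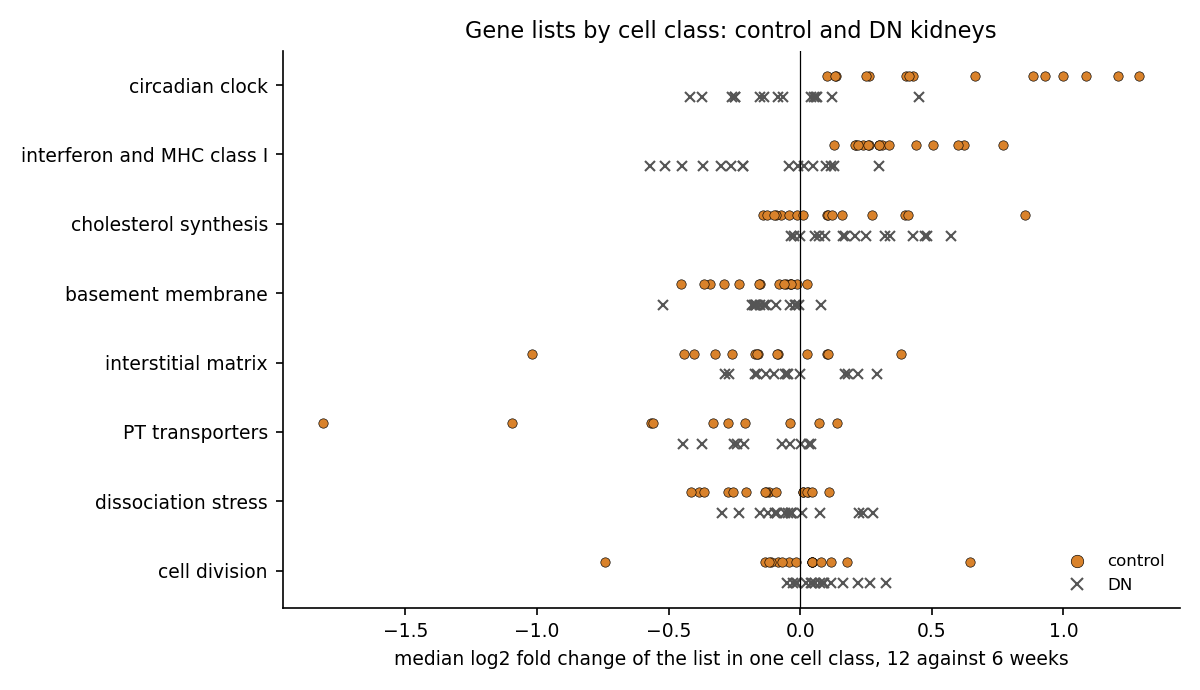
Median log2 fold change of 12 over 6 weeks over the members of 8 gene lists, with 1 circle per cell class of control kidneys and 1 cross per class of DN kidneys, for classes with at least 5 members tested. The control circles of the clock and interferon lists all lie above 0 and 14 of 15 of the basement membrane list lie below it.

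Transport genes, which carry the work of the tubule, gave no call in any tubule class. Of 314 tests of distal salt transport genes 180 lay above 0. In CNT, Wnk1, a kinase that regulates sodium chloride transport, stood at 735, 1085, 1460.5 and 1740.4 at 6 weeks and at 1185, 1761, 1933 and 1939 at 12 weeks (0.59 ± 0.20, adjusted p = 1, edgeR). The 7 CNT markers summed to 22814 to 72146 at 6 weeks and to 58096 to 69404 at 12 weeks, so the younger libraries spanned the older ones. The CNT class joined 2 clusters, and in male replicate 2 at 6 weeks 171 of its 1090 CNT cells came from the smaller one, to which the other control libraries gave 2 cells in all. Of 232 tests of acid-base genes 148 lay above 0, with a median of 0.11 in IC-A. Of 209 tests of PT transporters 153 lay below 0, but in PT itself 21 of 34 lay above 0 with a median of 0.07, and the low medians were in other classes, -1.81 in dividing cells and -1.09 in CNT. The CNT median was -0.10 without male replicate 2 at 6 weeks, which had the highest summed level of the list there (711 CPM against 194 to 418 in the other 7). Over all classes 31 tests lay below 0 at an unadjusted p under 0.05, which became 12 without male replicate 1 at 12 weeks or male replicate 2 at 6 weeks, 19 without male replicate 2 at 12 weeks, 52 without female replicate 2 at 6 weeks and 59 without female replicate 2 at 12 weeks. Calls were 2 without male replicate 1 at 12 weeks and 1 without male replicate 1 at 6 weeks. Nuclear genes of oxidative phosphorylation lay above 0 in 415 of 576 tests, by small amounts (medians -0.08 to 0.25), with 36 of 36 above 0 in CNT. The part of RNA from PT cells in the values of PT transporters outside PT was not tested.

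Genes of cholesterol synthesis lay above 0 in most members tested in immune cells, with a median of 0.85 (8 of 9 members, 5 at an unadjusted p under 0.05), and in intercalated cells, with 0.40 in IC-A (19 of 20, 8) and 0.41 in IC-B (18 of 21, 9). The median was 0.27 in mesangial cells (12 of 13 members) and between -0.14 and 0.16 in the other 12 classes. In IC-A, Cyp51, a demethylase of the pathway, stood at 3.05, 12.4, 14.6 and 13.3 at 6 weeks and at 20, 24.6, 27.8 and 19.5 at 12 weeks, without overlap (0.94 ± 0.23, adjusted p = 0.827, edgeR). In DN mice the medians were 0.57 in immune cells, 0.43 in IC-A and 0.17 in IC-B. No member was called in any class (edgeR), and 26 of 263 tests had an unadjusted p under 0.05 above 0 against 3 below. These were 9 and 6 without female replicate 2 at 12 weeks and 9 and 5 without female replicate 2 at 6 weeks, and without male replicate 2 at 6 weeks 3 were called.

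Growth and development lists had no call. Of 168 tests of the growth hormone and IGF axis 103 lay below 0, and of 184 tests of kidney developmental genes 94. Peg3, an imprinted gene, lay below 0 in 11 of 13 classes. In IC-A it stood at 12.2, 10.5, 8.47 and 10.5 at 6 weeks and at 2.22, 3.02, 2.69 and 3.59 at 12 weeks, without overlap (-1.71 ± 0.30, adjusted p = 0.177, edgeR). In CNT it stood at 9.93, 25.3, 15.3 and 14.1 and then at 2.75, 6.7, 6.26 and 8.7 (-1.23 ± 0.23, adjusted p = 0.465, edgeR), also without overlap, and in DN mice the changes were -1.88 and -0.59. Pappa, a protease that frees IGF from its binding proteins, lay below 0 in 8 of 8 classes (median -0.60) and Mdk, a growth factor of the developing kidney, in 5 of 6 (median -0.82). Replication and mitosis genes had no common direction, with 128 of 223 tests above 0. Their median was 0.64 in dividing cells and -0.74 in immune cells, where Stmn1 stood at 66, 272, 61.3 and 222 and then at 97.5, 24.2, 33.6 and 31.7.

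Genes induced by tissue dissociation, such as the immediate early genes, lay below 0 in 220 of 349 tests, 43 of them at an unadjusted p under 0.05 against 18 above 0, with none called (edgeR), and the list median was below 0 in 10 of 16 classes. Without male replicate 1 at 12 weeks the tests at an unadjusted p under 0.05 were 81 below and 14 above, the median was below 0 in 15 of 16 classes and 1 test was called. Without male replicate 2 at 6 weeks they were 71 and 17, with 9 called. They were 19 and 15 without female replicate 2 at 12 weeks, 21 and 16 without female replicate 2 at 6 weeks, and 27 or 28 below without female replicate 1 of either age. Calls were 2 without male replicate 2 at 12 weeks and 3 with the replicate block. In CNT 21 of 21 members did (median -0.41), and Jun stood at 179, 145, 320 and 34.4 at 6 weeks and at 64.2, 32.2, 54.8 and 25.2 at 12 weeks (-1.96 ± 0.51, adjusted p = 0.836, edgeR). In podocytes 14 of 18 did (median -0.39), beside the falls in matrix genes there, and their part in those falls was not tested.

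The following lists had no call. Tests above 0 were 38 of 42 for MHC class II and plasma cell genes, 133 of 248 for the NRF2 response, 158 of 259 for glycolysis, 134 of 275 for fatty acid oxidation, 135 of 281 for xenobiotic metabolism and 17 of 25 for erythroid genes. Tests below 0 were 148 of 230 for contractile genes, 113 of 202 for vascular growth and tone, 120 of 196 for podocyte and slit-diaphragm partner genes, 87 of 137 for p53 and cell cycle arrest, and 58 of 92 for the imprinted growth network. Among genes that differ by sex in PT, 83 of 127 tests of male-higher genes, run over 16 classes, lay below 0. Of the female-higher genes 14 of 20 tests, run over 6 classes, lay above 0. Most of these tests were outside PT. Of the genes that mark stretches of PT, 38 of 49 tests of first-segment genes and 34 of 40 of later-segment genes lay below 0, but in PT itself 3 of 6 and 3 of 7 lay above it. In Slc14a1 EC, Edn1, the vasoconstrictor endothelin-1, stood at 155, 162, 305 and 286 at 6 weeks and at 379, 533, 314 and 641 at 12 weeks, without overlap (1.09 ± 0.25, adjusted p = 0.369, edgeR).

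The change with age differed between females and males for 24 gene tests in 6 classes (0.0174% of 138217), and for 374 with the replicate block. In glomerular EC, Zbtb16, a transcription factor induced by glucocorticoid, stood at 248, 8.48, 6.18 and 12.7 at 6 weeks and at 14.2, 4.97, 68 and 11.4 at 12 weeks, so that the change in males minus that in females was 6.55 ± 0.88 (adjusted p = 0.00981, edgeR). In dLOH, Tsc22d3, the glucocorticoid-induced leucine zipper, stood at 408, 79.7, 19.1 and 24.1 and then at 44.9, 26.6, 55 and 25.9 (3.62 ± 0.57, adjusted p = 0.0188, edgeR). In both cases female replicate 1 at 6 weeks stood far above every other library. In smooth muscle and renin cells, Klf2, a transcription factor of endothelium, stood at 556, 164, 92.4 and 81.8 and then at 124, 64.6, 315 and 107 (2.85 ± 0.50, adjusted p = 0.0193, edgeR). With 2 libraries per sex and age, 1 library can set such a value.

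No share of cells passed between the ages. Shares of kept cells were compared with a two-sided exact permutation test, 4 against 4, which cannot give less than p = 0.0286 before adjustment over 17 classes, so a single class could not have passed by itself. The podocyte share was 0.974% ± 0.278 at 6 weeks and 2.85% ± 1.74 at 12 weeks (SD, n = 4, exact p = 0.0857, adjusted p = 0.729 over 17 classes). It includes the shallow podocyte cluster, 39.6% of which came from control male replicate 2 at 12 weeks. IC-B made up 6.54% ± 2.67 and 10.4% ± 0.584 (SD, n = 4, exact p = 0.0571, adjusted p = 0.729). By sex and number IC-B went from 4.59% to 10.5% and from 10.3% to 10.8% in females and from 6.68% to 9.52% and from 4.63% to 10.7% in males, higher at 12 weeks in 4 of 4 pairs (exact paired permutation p = 0.125, the smallest that 4 pairs allow). In 3 other classes the 4 pairs also had 1 sign (same p): immune cells were higher (means 0.771% and 1.09%), and Slc14a1 EC (2.52% and 1.54%) and peritubular and venous EC (0.899% and 0.571%) lower. Glomerular EC ranged from 1.30% to 27.9% of cells at 6 weeks and from 0.522% to 14.9% at 12 weeks.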

How the data were processed

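Single-cell libraries were made by the authors from both kidneys of each mouse with 10x Genomics 3' kits, after Percoll enrichment, collagenase and cold protease digestion and removal of dead cells. Per the labels and the study's methods, reads were processed with Cell Ranger 3.0.2 on mm10, and the deposited matrices hold raw UMI counts per gene and barcode. Whether counting used strand is not given in the sources used here. The barcode list of a library was read from its barcodes.

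Cells with 200 to 7000 genes were kept, cells with markers of both tubule and other lineages were removed as doublets (4967 control barcodes), and mitochondrial shares were limited to 50% in clusters of tubule lineage and in dividing cells and to 20% in the others. All 16 libraries were clustered together with scanpy 1.11.5 (2000 variable genes, 30 components, Harmony over libraries, 20 neighbours, leidenalg 0.10.2 at resolution 1.0), and clusters were named where at least 3 markers of a class were detected in 10% of cells at a ratio of 2. Counts were summed per library and class with at least 10 cells, so arterial EC had 3 libraries at 12 weeks and dividing cells 3 at 6 weeks. Age was tested in R 4.3.3 with edgeR 4.0.16 (quasi-likelihood, TMM, filterByExpr), sex and barcode list being covariates and Benjamini-Hochberg adjustment running over all genes of a class. DESeq2 1.42.0 was an alternative. Shares were compared with exact permutation tests (scipy 1.17.1). Scripts were tested on simulated data.

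Named genes were, per class, up to 3 called genes in each direction with the largest change among those with a mean of at least 10 CPM at the higher age and 1 direction in females of either barcode list and in males, up to 4 called members of each of 29 gene lists, and genes called in at least 3 classes. Interactions were named up to 3 per class. Sex-linked, ribosomal, mitochondrial and predicted genes were not named. The cell classes, lists and tests were chosen with earlier results of these data known. No p-value was computed for a list. Some genes, 1 of them called in podocytes, entered every test and count and are not reported here. Alternatives were RLE size factors, no filter, DESeq2, sex alone, a replicate block, the larger barcode list, 20 cells, Scrublet, a 20% mitochondrial limit, resolution 0.6, all 16 libraries in 1 fit and leaving out each library. Removal of cells with markers of another lineage was added after seeing the data.

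The labels give the same sex and replicate number at both ages, in different mice, and do not say that a number marks a batch. The deviations of same-numbered libraries from their age means correlated over 0.1 for every pair in 15 of 16 classes (medians over classes 0.294 to 0.582 per pair). These deviations still hold the sex difference. Within 1 sex the median correlation over classes was 0.519 in females (14 classes) and 0.466 in males (16 classes). In females the replicate number also separates the barcode lists. Counts of calls with the pair as a block are given as an alternative.

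Total counts per control library were 10510855 to 125551519, and chi-square tests of counts differed between replicates beyond sampling noise in every group. Precision for a gene is limited by its UMIs in a class, which for podocytes at 6 weeks came from 225 cells.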

Additional observations from a re-analysis of the deposited data

Results flagged for a closer look

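In groups of 4 libraries a library was marked where its gap to the nearest other exceeded Dixon's critical value for 4 values. This held for 7 of 70 groups, and chance marks about 1 in 20. For shares of cells, female replicate 1 at 12 weeks had 7.94% aLOH cells (others 2.82% to 3.60%), and male replicate 2 at 12 weeks had 3.09% smooth muscle and renin cells (others 1.32% to 1.60%). In podocytes at 12 weeks, male replicate 2 was far above the rest for Mgp, at 129 CPM against 1.66 to 19.6 and for Col1a1, at 8.95 against 0 to 0.853. Male replicate 1 at 12 weeks stood out for Per3 in podocytes, at 70.8 against 28.2 to 30.8. At 6 weeks, female replicate 1 had Bgn at 561 in podocytes against 49.4 to 98.4, and female replicate 2 had Ccdc184 at 46.3 in mesangial cells against 27.4 to 29.7.

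The change with age differed between the sexes, by a test of the difference itself, for 13 gene tests of 12 different genes that the naming rule admits, given here as the log2 change in males minus that in females. In podocytes it was 9.73 for Dcn, decorin, whose 216 UMIs at 6 weeks came from 6 cells and 239 at 12 weeks from 3 cells, and both female libraries at 12 weeks were at 0, so that this value depends on the prior count. In glomerular EC it was 6.55 for Zbtb16, 5.11 for Ttc39c and 3.89 for Fkbp14. In smooth muscle and renin cells it was 3.09 for Plat, tissue plasminogen activator, and 2.85 for Klf2. In dLOH it was 5.70 for Zbtb16, 5.26 for Sult1d1 and 3.62 for Tsc22d3. In CNT it was -5.17 for Aebp1, -4.74 for Cst8 and -4.30 for Spink1, and in IC-B 2.96 for Egr1, an immediate early gene. Female replicate 1 at 6 weeks, the library with the fewest UMIs, was the highest of the 8 for Zbtb16 in both classes, Ttc39c, Plat, Klf2 and Tsc22d3.

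The change of Mgp in smooth muscle and renin cells differed between control and DN mice by -1.72 on the log2 scale, control minus DN, by a test of the difference.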

How the results depend on the processing

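Counts of called genes depended on the processing, and the cause was not tested. The 26 calls became 1080 with no filter on low counts, 57 with DESeq2, 1 with sex alone, 77 with the replicate block, 13 in the 6 libraries of the larger barcode list, 2 with Scrublet, 10 at resolution 0.6, 10 without cells with markers of another lineage, 1 with all 16 libraries in 1 fit, and 14 to 98 when 1 library was left out. Podocytes (18 calls) gave 130 with no filter, 1 with sex alone, 40 with the block, 6 in the 6 libraries, 7 with at least 20 cells, 0 with Scrublet, 2 at resolution 0.6, 3 without cells of another lineage, 0 with 16 libraries and 7 to 31 with 1 left out. Mesangial cells (4) gave 74 with no filter, 8 with DESeq2, 0 with sex alone, Scrublet or 16 libraries, 14 with the block and 0 to 22 with 1 left out. Smooth muscle and renin cells (4) gave 21 with no filter, 0 with sex alone, the 6 libraries, Scrublet or 16 libraries, 8 with the block and 0 to 20 with 1 left out.

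In classes with 0 calls, no filter gave 36 in glomerular EC, 10 in arterial EC, 62 in Slc14a1 EC and in immune cells, 108 in dividing cells, 134 in PT, 31 in dLOH, 34 in aLOH, 37 in DCT, 147 in CNT, 118 in PC, 29 in IC-A and 47 in IC-B. DESeq2 gave 1 in glomerular EC, immune cells, DCT and IC-B, 7 in Slc14a1 EC, 2 in dividing cells and aLOH, 8 in PT, 3 in dLOH and 5 in PC. The replicate block gave 10 in arterial EC, 2 in Slc14a1 EC and dLOH and 1 in DCT. The 6 libraries gave 3 in glomerular EC, resolution 0.6 gave 1 in Slc14a1 EC, 20 cells gave 10 and 16 libraries 1 in dividing cells, the 20% mitochondrial limit 1 in PT, and Scrublet 1 in dLOH and aLOH. Leaving out 1 library gave 0 to 5 in glomerular EC, 0 to 2 in arterial EC and dLOH, 0 to 9 in Slc14a1 EC, 0 to 10 in dividing cells, DCT and IC-B, 0 to 4 in PT, 0 to 3 in aLOH, 0 to 17 in CNT, and 0 to 7 in PC and IC-A.

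The 24 differences by sex became 929 with no filter and 374 with the block, and the 1 difference by genotype became 5 with DESeq2 and 6 with the block. Named genes kept their sign in 350 of 350 alternatives that gave a result and lost the call in 161. Fbln1, Col1a1, Col3a1 and Bgn in podocytes had results in fewer alternatives than the other named genes, and the missing ones are not counted. Shares changed sign in 11 of 203 alternatives, each without 1 library, and none of these differences had passed. With 1 library left out, the 12-week minus 6-week share in percentage points ran from -0.879 (and -0.0366) to 2.42 in CNT, -1.56 to 0.0175 in DCT, -0.0658 to 2.87 in PC, -3.33 to 0.302 in PT, -0.310 to 0.0551 (and 0.0546) in arterial EC, -0.204 to 0.952 in dLOH, -6.96 to 1.89 in glomerular EC, -0.202 to 0.127 in dividing cells and -1.07 to 0.153 in smooth muscle and renin cells. Podocytes had 19 to 73 cells per library at 6 weeks.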
